A study of Mus musculus with 4 samples.

Results

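The genes described are 10 heat shock and chaperone genes: Hspa1a, Hspa1b, Hspb1, Dnajb1, Hsph1, Dnaja1, Hspe1, Hspd1, Hsp90aa1 and Hspa8. They were matched by symbol, and all 10 stand among the 31053 genes listed for both single-cell libraries. They were chosen by their measured UMI levels across the cell classes and both genotypes of these data, so the levels and ratios given here describe that choice and no test is drawn from them. Level is given as CPM, counts per 1000000 summed UMIs of a cell class, where a UMI is a tag that marks a single captured RNA molecule.

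The cells came from mammary tumours of FVB/NJ mice at 12 weeks of age, digested and sorted by FACS for infiltrating immune cells. The mice of the reference group carried PyMT, the polyomavirus middle T oncogene that gives mammary tumours, and those of the other group were Jagged1/PyMT, so all tumours compared carry PyMT. The promoters and the kind of Jagged1 allele were not given in the sources used here. The labels list 4 samples, 2 per genotype, but the counts of a genotype were pooled in a single matrix in which the samples cannot be told apart, so each genotype is 1 library, no difference between genotypes has a replicate check, and every interval covers counting error only. UMIs of the same cell are not independent, so intervals for genes held mostly by a few cells are too narrow.

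Heat shock proteins are molecular chaperones: they bind unfolded or misfolded proteins, help them to fold and keep them from clumping. When damaged proteins build up, the transcription factor HSF1 is freed from chaperones, forms trimers and binds heat shock elements, which are repeats of the unit nGAAn in alternating direction, and so raises transcription of the inducible members within minutes. Constitutive relatives such as Hspa8 are made in unstressed cells. Tissue digestion is known to raise heat shock and immediate early transcripts in freshly isolated cells. These tumours were digested before sorting, all groups alike per the labels, and the part of that step was not tested.

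Promoter sequences of 4 members are shown: Hspa1a and Hspa1b because their near identity sets the pair apart, Hspb1 because it holds the motif of the heat shock element at separate places, and Hspe1 for the longest run of it. RefSeq promoter windows, with 250 bases before to 50 after a start on GRCm38.p6, had an entry for 8 of the 10 genes, all but Hspa8 and Hsp90aa1. Each sequence runs 5′ to 3′ on the gene's own strand. Capitals mark GAANNTTC or TTCNNGAA, pairs of units in opposite direction that are each their own reverse complement, with overlaps allowed. The first 3 lines end at the base just before the transcription start. They lie at chr17:34972157-34972306 on the minus strand, chr17:34959239-34959388 on the minus strand and chr5:135887769-135887918 on the plus strand. The fourth lies at chr1:55088053-55088082 on the plus strand and overlaps an annotated Hspd1 exon. It lies between the RefSeq start of Hspe1 at 55088148 and a RefSeq start of Hspd1 at 55087932. Hspd1 has another start at 55088243, and from that start the stretch lies inside the gene.
Hspa1a: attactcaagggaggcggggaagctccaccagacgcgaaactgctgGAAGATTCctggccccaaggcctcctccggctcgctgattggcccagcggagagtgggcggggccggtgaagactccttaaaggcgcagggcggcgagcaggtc
Hspa1b: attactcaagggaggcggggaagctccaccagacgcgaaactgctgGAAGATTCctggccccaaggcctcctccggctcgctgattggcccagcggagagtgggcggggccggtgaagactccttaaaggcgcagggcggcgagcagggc
Hspb1: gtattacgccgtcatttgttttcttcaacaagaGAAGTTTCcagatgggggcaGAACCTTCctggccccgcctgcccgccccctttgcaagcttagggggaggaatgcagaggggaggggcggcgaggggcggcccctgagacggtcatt
Hspe1: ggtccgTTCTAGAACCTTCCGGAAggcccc
Hspa1a and Hspa1b, which encode the inducible HSP70, lie side by side on chromosome 17, and 247 of the 250 bases before their starts were identical. Hspb1, the small heat shock protein HSP27, held the motif at 2 places. A member was counted if any of its listed starts had the motif before it. By that count, 7 of the 8 members with an entry held GAANNTTC or TTCNNGAA before the start, all but Dnajb1. So did 12.8% of the 32851 windows in the table. The 3-unit form GAANNTTCNNGAA or its reverse complement TTCNNGAANNTTC stood before the start in 0.466% of the windows. Among the members it was found there for Hspe1 and Hspd1, which lie on opposite strands and share the stretch shown. For Hspd1 this holds for the start at 55087932 only, and no match was found before its other start. These are matches of letters in a window, and no binding was measured here.

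In the mouse genome (GRCm38, GENCODE annotation) Hspa1b lies at chr17:34956436-34959238 and Hspa1a at chr17:34969190-34972156, both on the minus strand. Hspb1 lies at chr5:135887919-135889563 on the plus strand and Hsph1 on the same chromosome at chr5:149614287-149636376 on the minus strand. Dnajb1 is at chr8:83608193-83612653 (plus) and Dnaja1 at chr4:40722150-40737149 (plus). Hspd1, at chr1:55077835-55088243 (minus), and Hspe1, at chr1:55088132-55091307 (plus), overlap at their starts. Hsp90aa1 is at chr12:110690605-110702728 (minus) and Hspa8 at chr9:40800984-40810087 (plus).

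The PyMT library held 36012036 UMIs and 7444 cells with a median of 3841 UMIs, and the Jagged1/PyMT library 55506773 UMIs and 7875 cells with a median of 4200. A barcode counted as a cell from 500 UMIs and 250 genes upward, with mitochondrial UMIs no higher than 10%. Barcodes under 100 UMIs were summed as free RNA, the RNA outside cells, and held 3.14% and 3.70% of all UMIs. The libraries shared 70 cell barcodes, 0.940% and 0.889% of their cells. Jag1 had 1.96 CPM over all PyMT cells and 16.8 CPM over all Jagged1/PyMT cells. Cell classes were named by marker genes. The gate admits only cells in which the markers of a single lineage sum highest of the 11 lineages, so that order is no check on the names. Macrophage-like cells, those with C1q UMIs, numbered 228 in PyMT and 2324 in Jagged1/PyMT, T cell-like cells 1601 and 990, B cell-like cells 908 and 762, neutrophil-like cells 96 and 298, monocyte-like cells 34 and 98, and mature dendritic cell-like cells 68 and 66. Epithelial-like cells, 85 and 33, also passed the immune sort. Because Ccr7 served as a marker of mature dendritic cells, many T and B cells fell outside the gate, and they are kept apart as Ccr7-holding T cell-like (3208 and 1410) and Ccr7-holding B cell-like cells (434 and 432).

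Hspa1a and Hspa1b divided the cells of these tumours into a group of classes with high levels and a group with low levels. In PyMT, Hspa1a stood at 429 CPM in epithelial-like, 278 CPM in macrophage-like, 255 CPM in mature dendritic cell-like and 233 CPM in monocyte-like cells. Conventional dendritic cell-like cells, at 538 CPM and, in the other library, 875 CPM, were only 8 and 7 cells. Macrophage-like, mature dendritic cell-like and monocyte-like cells did not differ beyond their counting intervals. The same gene stood at 23.2 CPM in Ccr7-holding B cell-like, 14.1 CPM in T cell-like, 11.2 CPM in neutrophil-like, 2.81 CPM in Ccr7-holding T cell-like and 0.905 CPM in B cell-like cells, the last of these on 3 UMIs. In Jagged1/PyMT the order began with epithelial-like cells at 893 CPM and mature dendritic cell-like cells at 869 CPM, whose intervals overlapped, followed by monocyte-like cells at 390 CPM and macrophage-like cells at 340 CPM. Neutrophil-like cells stood at 124 CPM, Ccr7-holding B cell-like cells at 53.5 CPM, T cell-like cells at 31.7 CPM, B cell-like cells at 30.2 CPM and Ccr7-holding T cell-like cells at 14.98 CPM. The T cell-like and B cell-like levels there did not differ beyond their intervals. Macrophage-like, monocyte-like, mature dendritic cell-like and epithelial-like cells thus stood above the 4 T and B classes in both libraries. Hspa1b divided the classes in the same way. It stood at 242 CPM and 212 CPM in the macrophage-like cells of PyMT and Jagged1/PyMT, and at 9.23 CPM and 17.9 CPM in their T cell-like cells. In PyMT B cell-like cells it had 0 UMIs, with a 95% interval that reaches up to 1.11 CPM. Beyond the class pattern, Hspa1a made up 53.4% of the UMIs of the pair in PyMT macrophage-like cells (exact binomial 95% interval 50.1% to 56.7%) and 61.6% in Jagged1/PyMT (60.8% to 62.4%). The transcripts of the 2 genes share 49.3% of the 90-base windows of Hspa1a, but none of the 411 windows in its last 500 bases, the end that this 3′ assay reads, so the 2 copies can be told apart there.

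**Figure D1:**
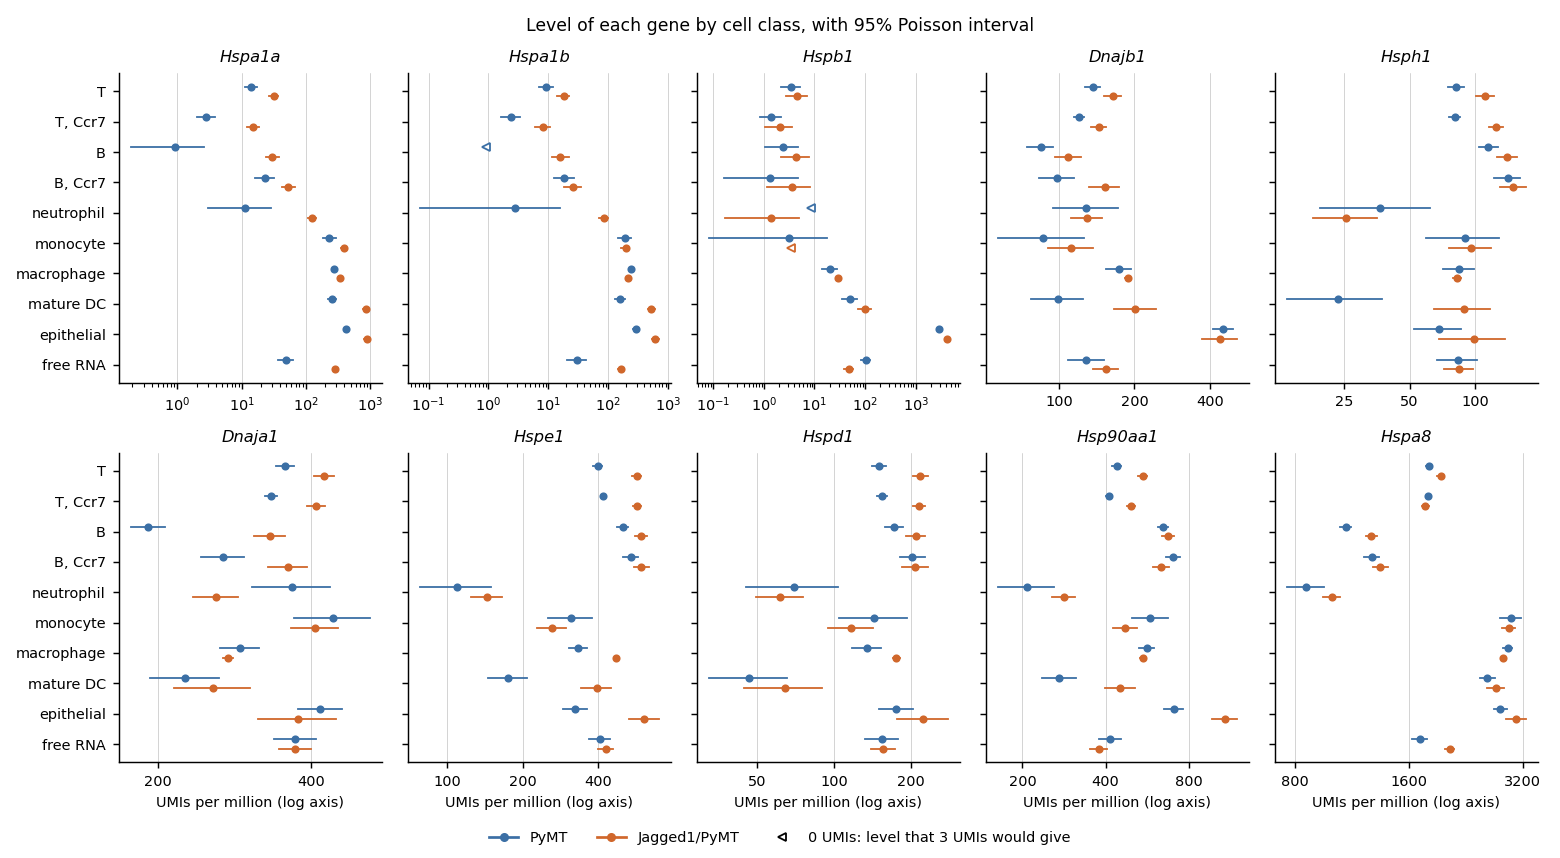
Level of each of the 10 genes in CPM (log axis) by cell class and in free RNA, with points for the PyMT and Jagged1/PyMT libraries and bars for exact Poisson 95% intervals; open triangles mark 0 UMIs at the level that 3 UMIs would give. Hspa1a and Hspa1b span about the whole axis from B cell-like to epithelial-like cells, Hspb1 stands out in epithelial-like cells at 2904 and 4134 CPM, and the other genes lie within a narrower range.

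Compared with T cell-like cells of the same library, macrophage-like cells held 19.6-fold more Hspa1a in PyMT (95% interval 15.7 to 24.7) and 10.7-fold more in Jagged1/PyMT (9.05 to 12.8). The ratio for Hspa1b was 26.2-fold and 11.9-fold. Hspb1 was 6.02-fold and 6.51-fold higher, on 36 and 729 macrophage UMIs. In PyMT only 5 of the 228 macrophage-like cells held a Hspb1 UMI, and a single cell held 26 of the 36. Hspa8, the constitutive HSC70, was 1.62-fold higher in PyMT and 1.46-fold higher in Jagged1/PyMT. Dnaja1, an HSP40 co-chaperone that delivers substrates to HSP70, was lower in macrophage-like cells, at 0.816-fold and 0.649-fold. In PyMT, 4 of the 10 members were past 1.5-fold, all higher, beside 55.8% of 8257 genes with at least 50 UMIs over both classes. In Jagged1/PyMT 3 were past it higher and 1 lower, beside 56.6% of 10554 genes. The members' count is below the background of all genes, and their median log2 ratio was 0.36 and 0.10, beside -0.06 and 0.12 over all genes.  An alternative chosen after seeing the data left out the cells of 10 or more Hspa1a and Hspa1b UMIs. For the summed 5 strongly inducible members (Hspa1a, Hspa1b, Hspb1, Dnajb1, Hsph1) the log2 ratio was then 0.03 instead of 1.71 in PyMT. In Jagged1/PyMT it was -0.18 instead of 1.37. The cut uses 2 of the 5 summed genes, so a fall follows in part from the cut itself. It took 6.14% and 16.5% of macrophage-like cells, against 0.187% and 0.303% of T cell-like cells.

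Macrophage-like cells with 10 or more UMIs of the pair are few and hold most of that class's HSP70 transcripts. In PyMT, 78.1% of macrophage-like cells had no Hspa1a or Hspa1b UMI, and 8 of 228 cells (3.51%) had 20 or more, up to 197 in a single cell. In Jagged1/PyMT 60.7% had none, and 211 of 2324 cells (9.08%) had 20 or more, up to 427. Cells with at least 10 UMIs of the pair made up 6.14% and 16.5% of macrophage-like cells and held 88.1% and 87.2% of the pair's UMIs. HSP70 transcripts in these tumour macrophages were thus concentrated in a minority of cells in both libraries. The Jagged1/PyMT cells were deeper, with a median of 9846 UMIs against 5907. After thinning every cell to 1000 UMIs, 10.3% of PyMT macrophage-like cells (exact binomial 95% interval 6.38% to 15.4%) and 20.04% of Jagged1/PyMT ones (18.4% to 21.8%) held a UMI of the pair, leaving out 33 and 94 shallower cells. Among mature dendritic cell-like cells the thinned share was 13.4% (6.33% to 24.0%) in PyMT and 44.6% (32.3% to 57.5%) in Jagged1/PyMT. Among T cell-like cells it was 1.07% and 3.20%.

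**Figure D2:**
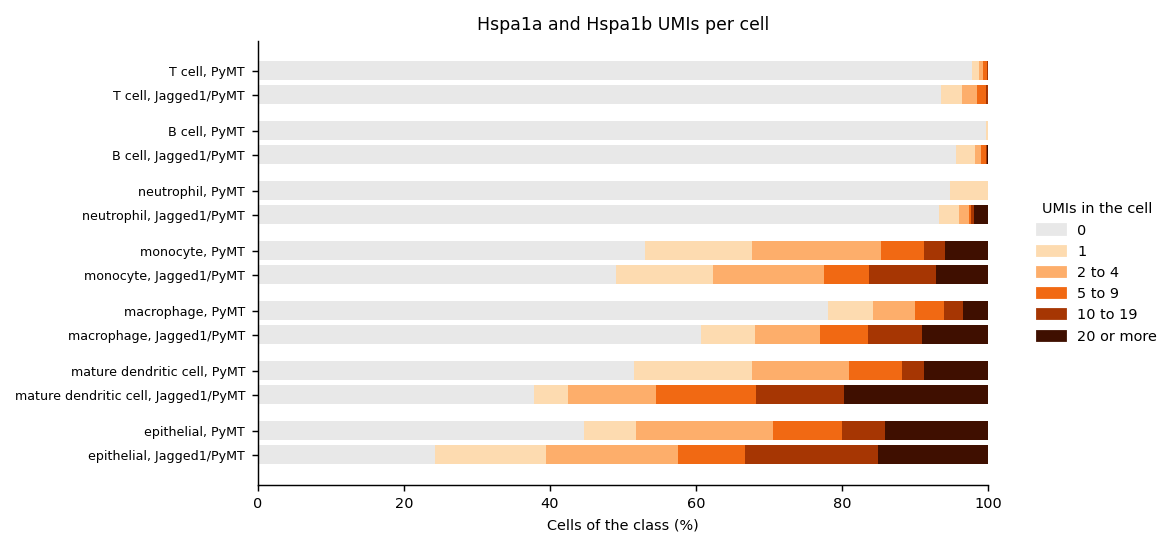
Share of cells of each class (horizontal axis, percent) by their number of Hspa1a and Hspa1b UMIs, not thinned, for both libraries. Cells with none make up 97.8% of PyMT T cell-like cells and 24.2% of Jagged1/PyMT epithelial-like cells, and cells with 20 or more are found mainly in the macrophage, dendritic, monocyte and epithelial classes.

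In macrophage-like cells, no member was past 1.5-fold between the genotype libraries. Hspa1a went from 278 CPM to 340 CPM, a log2 ratio (Jagged1/PyMT over PyMT) of 0.29 with a 95% interval of 0.16 to 0.43. Hspa1b went the other way, from 242 to 212 CPM, a log2 ratio of -0.20 (interval -0.34 to -0.05). The largest ratios were those of Hspb1 (0.51), and of Hspe1 (0.50, interval 0.38 to 0.63) and Hspd1 (0.39), whose products HSP10 and HSP60 form the folding chamber of mitochondria. The Hspb1 ratio rests on 36 PyMT UMIs, 26 of them in a single cell. Dnajb1, Hsph1, Dnaja1, Hsp90aa1 and Hspa8 lay between -0.08 and 0.12. The count was 0 of 10, beside 21.3% of 10329 genes, and the median log2 ratio of the members and that of all genes were both 0.04. The count was 6 when cells with any UMI of another lineage's markers were left out, which kept 77 and 435 cells, and Hspa1a then had a log2 ratio of -1.16. Without the top 1% of cells in member UMIs, 3 cells of PyMT and 24 of Jagged1/PyMT, it was 1.11, and 3 members were past 1.5-fold. A single PyMT cell held 21.7% of the pair's UMIs in that class. Over all cells of a library the picture was another: Hspa1a and Hspa1b together had 83.8 CPM in the PyMT library against 378 CPM in the other, a 4.51-fold difference, with macrophage-like cells making up 3.06% and 29.5% of the cells.

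T cell-like cells held more of every measured member in Jagged1/PyMT than in PyMT. Hspa1a went from 95 UMIs (14.1 CPM) to 133 UMIs (31.7 CPM), a log2 ratio of 1.16 (interval 0.77 to 1.56), and Hspa1b had 0.95. Hspd1 (0.54), Hspe1 (0.52) and Hsph1 (0.45), the HSP110 that exchanges nucleotide on HSP70, came next. Hsp90aa1, the inducible HSP90, had 0.31, Dnajb1, the HSP40 that works with stress-induced HSP70, 0.27, Dnaja1 0.25 and Hspa8 0.11. The members past 1.5-fold were 2 of 9, beside 13.3% of 8290 genes, while all 9 stood above 0. Their median log2 ratio was 0.45, beside 0.00 over all genes to 2 decimals (-0.00118). Hspb1 had 23 and 19 UMIs, under the minimum of 50. In Ccr7-holding T cell-like cells 3 of 9 were past 1.5-fold, beside 11.3% of 8966 genes. There Hspa1a went from 2.81 to 14.98 CPM, Hspa1b from 2.38 to 8.17 CPM and Hsph1 from 80.5 to 125 CPM, and Hspa8 had a log2 ratio of -0.02. Within T cell-like cells of PyMT, Hspa1a stood at 17.1 CPM in CD4 cells and 3.53 CPM in CD8 cells. These rest on 32 UMIs, 23 of them in a single cell, and on 6 UMIs. The same subsets of Jagged1/PyMT stood at 27.3 and 27.7 CPM.

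B cell-like cells showed the largest contrast in Hspa1a and a clear one in Dnaja1. Hspa1a had 3 UMIs in 908 PyMT cells and 76 UMIs in 762 Jagged1/PyMT cells, a 33.4-fold ratio, or a log2 ratio of 5.06 with an interval of 3.46 to 7.37. Hspa1b had 0 and 40 UMIs, a 17.6-fold ratio with the PyMT sum set at 3 UMIs. In Jagged1/PyMT 3 of these cells had 10 or more UMIs of the pair and held 40.5% of them. Dnaja1 rested on many more molecules: 635 UMIs (192 CPM) and 834 UMIs (331 CPM), a log2 ratio of 0.79 (interval 0.64 to 0.94). Dnaja1 stood at 215 CPM and 371 CPM in B cell-like cells with a Myc UMI, and at 178 CPM and 278 CPM in those without. The other 6 measured members had log2 ratios of 0.07 to 0.36. The count past 1.5-fold was 2 of 8, beside 11.5% of 7028 genes, and the median was 0.28, beside -0.03 over all genes. In Ccr7-holding B cell-like cells 2 of 9 were past it, Hspa1a (1.21) and Dnajb1 (0.63), beside 13% of 5286 genes. A single PyMT cell of that class held 85.7% of its 63 Hspa1a and Hspa1b UMIs, and Dnaja1 had a log2 ratio of 0.43.

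Free RNA and phagocyte markers are given beside these lymphocyte values. The 9 phagocyte markers summed to 16.8 CPM in PyMT T cell-like cells against 71.2 CPM in Jagged1/PyMT ones, and to 17.2 against 68.0 CPM in B cell-like cells, with 0 to 2 of the 9 markers at 0 in any T or B class. In macrophage-like cells they summed to 13850 and 14203 CPM. Free RNA of the PyMT library held Hspa1a at 49.5 CPM and that of Jagged1/PyMT at 286 CPM, while Hspa1b had 30.1 and 164 CPM. T cell-like cells held Hspa1a at 28.6% of that level in PyMT and 11.1% in Jagged1/PyMT, and B cell-like cells at 1.83% and 10.6%. Lyz2, Cd14 and Cxcl2, genes of phagocytes that are also in free RNA, stood at 0.365% to 2.29% of their free RNA level in the 4 T and B classes. Within the same class and library, Hspa1a stood above all 3 of those genes in all 8 cases, although its PyMT B cell-like value rests on 3 UMIs and its interval there reaches down to 0.366%. Hspa1b stood above them in all but PyMT B cell-like cells, where it had 0 UMIs. Apoe, Selenop and Lgmn, also phagocyte genes, went the other way. At least 1 of them stood above Hspa1a in 7 of the 8 cases, with Selenop at 60.1% and 13.4% in T cell-like cells of PyMT and Jagged1/PyMT and Lgmn at 44.8% and 12.1% in B cell-like cells. Lgmn reached 66.1% in Ccr7-holding B cell-like cells of PyMT. The part of free RNA and of phagocytes in the lymphocyte values was not tested. Hspb1 was lower in free RNA of Jagged1/PyMT, at 47.7 CPM against 103 CPM in PyMT. In the 4 T and B classes it stood at 1.33 to 4.52 CPM, higher in Jagged1/PyMT in each. Those class values rest on 2 to 23 UMIs, and the intervals of the libraries overlapped. The remaining 7 genes stood at 51.5% to 179% of their free RNA level in these classes.

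**Figure D3:**
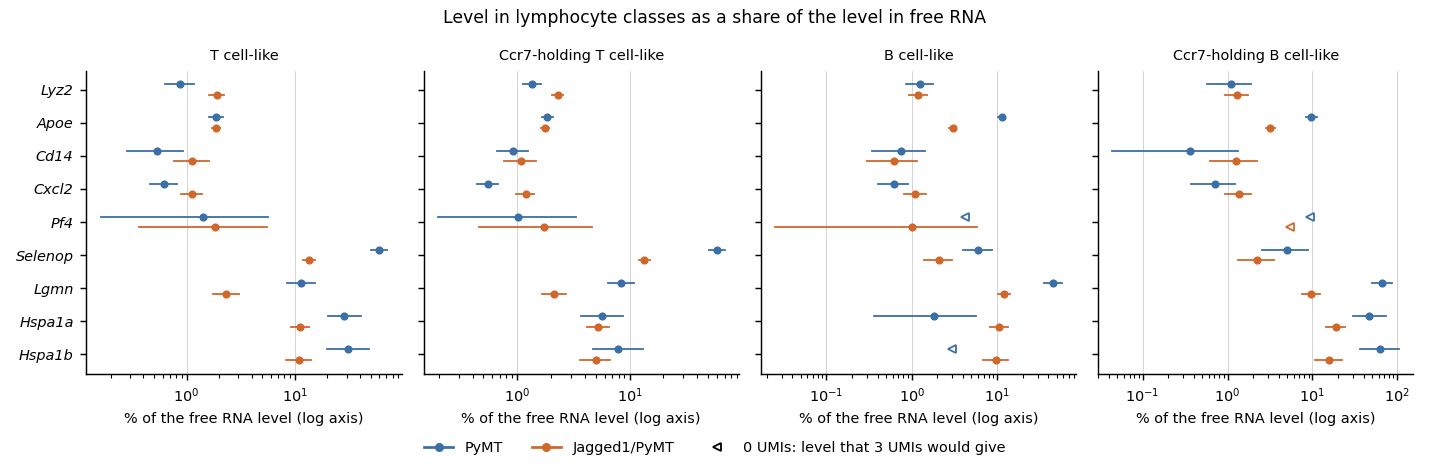
Level in the T and B classes as a percent of the level in free RNA of the same library (log axis, counting intervals; open triangles mark 0 UMIs at the level that 3 UMIs would give). Lyz2, Cd14 and Cxcl2 lie between 0.365% and 2.29%, most Hspa1a and Hspa1b values lie above them, and Selenop or Lgmn reach higher still in most classes, up to 66.1%.

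Mature dendritic cell-like cells, which carry Fscn1 and Ccl22 and are known to migrate to lymph nodes, had the most members past the threshold. The 7 members past 1.5-fold, of 10 measured, all stood higher in Jagged1/PyMT, beside 13.7% of 2593 genes. Hspa1a went from 255 to 869 CPM, a log2 ratio of 1.77 (interval 1.52 to 2.02), and Hspa1b from 155 to 524 CPM, a ratio of 1.76. Hsph1 rested on 17 and 47 UMIs and had 1.93 (interval 1.10 to 2.82). Hspe1 (1.18), Dnajb1 (1.03), Hspb1 (0.99) and Hsp90aa1 (0.73) also passed, while Hspd1 (0.46), Dnaja1 (0.18) and Hspa8 (0.08) did not. For Hspb1, a single Jagged1/PyMT cell held 40 of the 52 UMIs. The share of cells with a Hspb1 UMI was lower there, 10.6% against 23.5% in PyMT. The median over the members was 1.01, beside -0.06 over all genes. Cells with 10 or more HSP70 UMIs made up 11.8% of the PyMT cells of this class and 31.8% of the others. Without them 3 members were past 1.5-fold and the median was 0.16, but that cut was made on 2 of the members counted. After thinning 2 members were past it. These values rest on 68 and 66 cells.

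Epithelial-like cells had the highest Hspb1 of the 9 classes plotted, 2904 CPM in PyMT and as much as 4134 CPM in Jagged1/PyMT, with a UMI in 85.9% and 87.9% of the cells. The next class, mature dendritic cell-like cells, stood at 49.4 and 98.0 CPM. Dnajb1 was also highest there among those 9 classes, at 452 and 438 CPM, while T cell-like cells stood at 136 and 164 CPM. Between the libraries 4 of 10 members were past 1.5-fold, all higher in Jagged1/PyMT, beside 19.9% of 3327 genes: Hspa1a (1.06), Hspa1b (1.05), Hspe1 (0.91) and Hsp90aa1 (0.62). With 33 Jagged1/PyMT cells, the signs for Hspa1a, Hspa1b and Hsp90aa1 did not hold when cells with any UMI of another lineage were left out, which kept 23 and 6 cells and gave Hspa1a a log2 ratio of -1.50.

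Neutrophil-like cells were low in most chaperones. Hspe1 stood at 109 and 144 CPM, Hspd1 at 70.0 and 61.5 CPM, Hsp90aa1 at 207 and 282 CPM and Hspa8 at 854 and 1001 CPM, and each was the lowest or next to lowest of the 9 classes plotted. Hspa1a had 4 UMIs in PyMT and 180 in Jagged1/PyMT, and Hspa1b 1 and 121. In Jagged1/PyMT 7 of 298 cells had 10 or more UMIs of the pair and held 91.4% of them. These 2 genes were the 2 of 9 past 1.5-fold, beside 30.1% of 3355 genes, and Dnaja1 was lower in Jagged1/PyMT (-0.50, interval -0.79 to -0.20). In monocyte-like cells Hspa1a alone was past it, 1 of 9 beside 19.6% of 3013 genes, with a log2 ratio of 0.74. A single one of the 34 PyMT cells held 41.7% of that class's 132 Hspa1a and Hspa1b UMIs. Hsp90aa1 had -0.30 there.

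**Figure D4:**
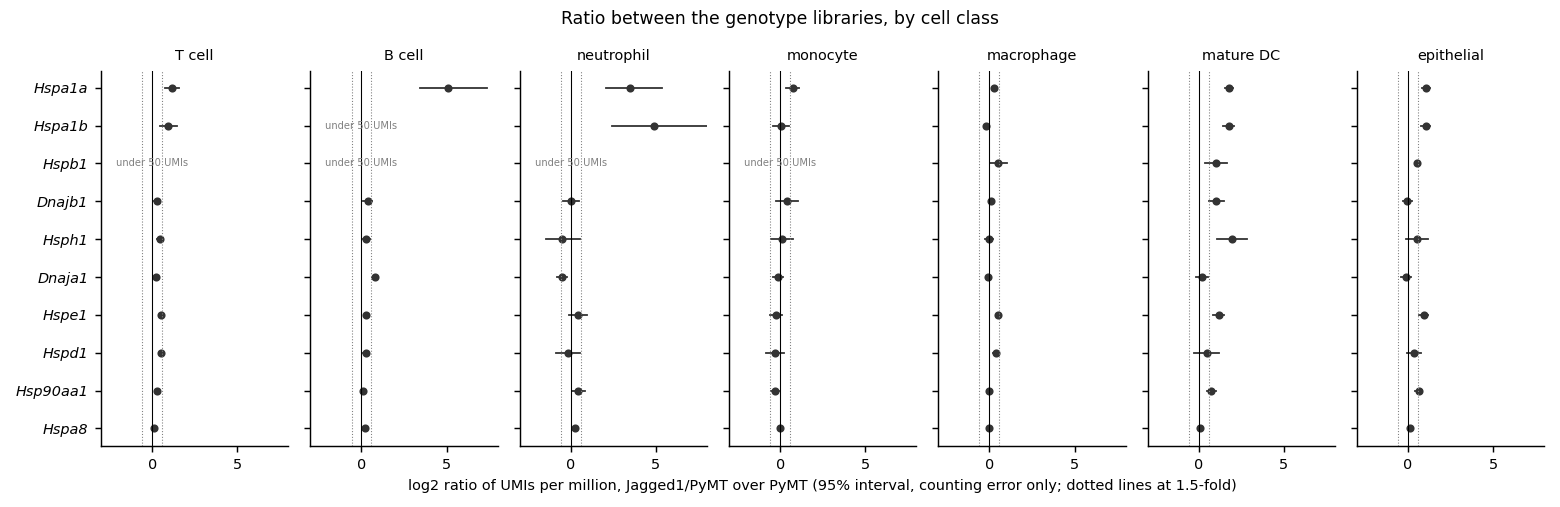
log2 ratio of CPM, Jagged1/PyMT over PyMT, for the 10 genes in 7 cell classes, with counting 95% intervals (the upper end for Hspa1b in neutrophil-like cells, 10.2, is cut at the axis) and dotted lines at 1.5-fold. All 10 genes lie within the dotted lines in macrophage-like cells, and 7 lie above the upper line in mature dendritic cell-like cells.

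The members did not move as a block across classes. Over 24 pools, each a class and library with at least 30 cells, Pearson's r of log2(CPM + 10) with Hspa1a was 0.99 for Hspa1b, 0.69 for Hspa8, 0.64 for Hspb1 and 0.45 for Dnajb1, and it was -0.37 for Hspd1. With Hspd1 it was 0.86 for Hspe1, 0.76 for Hsph1 and 0.76 for Hsp90aa1. Pools of a library share its free RNA and its depth, and these are descriptions. Across classes the genes thus fell into an HSP70 group and a group with the mitochondrial chaperonin. Within a class the grouping was another. Among thinned Jagged1/PyMT macrophage-like cells, Dnajb1 had a UMI in 26.0% of the 447 cells with a Hspa1a or Hspa1b UMI and in 9.25% of the 1783 without. Hsph1 was in 11.2% and 4.94%, Hsp90aa1 in 47.0% and 30.8%, Dnaja1 in 29.1% and 19.9%, and Hspb1 in 3.36% and 0.673%. Hspe1, at 37.8% and 34.9%, and Hspd1, at 19.2% and 15.1%, had overlapping intervals. Immediate early genes, which are induced within minutes of stimulation, went with HSP70 in the same cells: Fos was in 77.2% and 37.1%, Jun in 70.7% and 32.02% and Atf3 in 83.4% and 45.8%. Actb, an actin gene, was in 99.3% and 99.8%. Hspa8 was in 92.8% and 85.9% of those Jagged1/PyMT cells, with intervals apart. In PyMT, 20 cells held a UMI of the pair and 175 did not. There Dnajb1 was in 30% and 6.29%, with intervals apart. Hsp90aa1, in 55% and 30.3%, had overlapping intervals, as did Hsph1, in 5% and 6.29%, and Hspa8, in 90% and 92%.

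**Figure D5:**
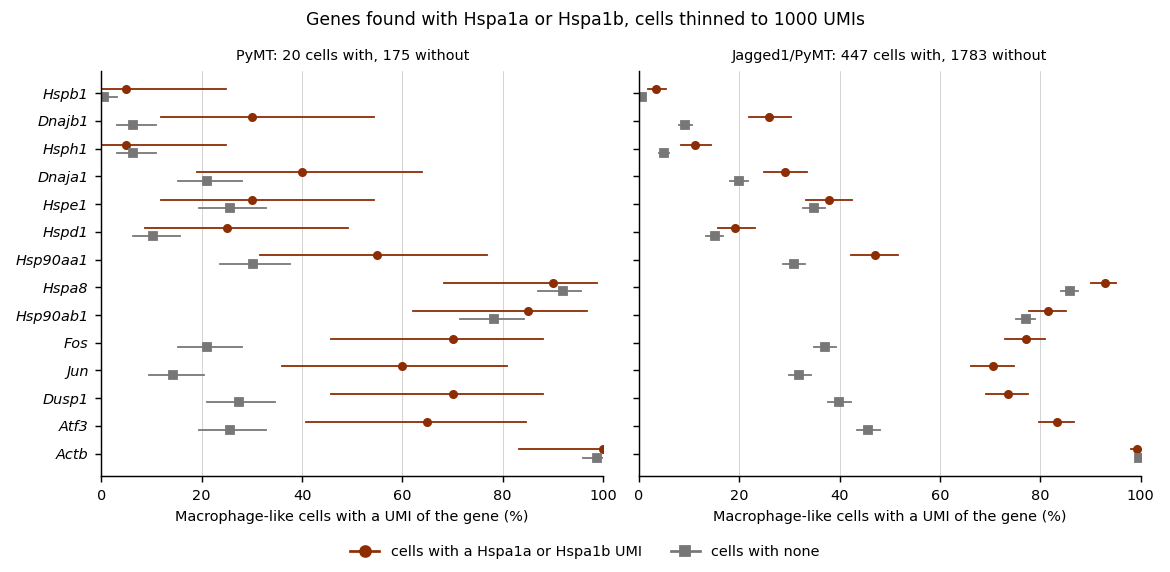
Share of macrophage-like cells thinned to 1000 UMIs that hold a UMI of each gene (horizontal axis, percent), for cells with a Hspa1a or Hspa1b UMI and cells with none, with exact binomial 95% intervals. In Jagged1/PyMT the intervals are apart for Dnajb1, Hsph1, Hsp90aa1, Fos, Jun, Dusp1 and Atf3 and overlap for Hspe1.

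Other chaperone and stress genes were counted by list. Between macrophage-like and T cell-like cells, 17 of 19 endoplasmic reticulum chaperones and unfolded protein response genes were past 1.5-fold higher in PyMT and 16 of 19 in Jagged1/PyMT, with medians of 1.37 and 1.28. Of all genes measured, 27.6% and 34.4% were past it higher between these classes, and 28.3% and 22.2% lower. P4hb, a disulfide isomerase, had 2.22 and 2.57, and Hspa5, the HSP70 of that compartment, 1.86 and 2.10. Of the TRiC chaperonin, which folds actin and tubulin, 0 of 7 measured genes were past it in either library. Of 18 immediate early genes, 13 were higher and 1 lower in both. Between genotypes, 5 of 18 immediate early genes were past 1.5-fold higher in macrophage-like cells, with Atf3 at 0.78 and Jun at 0.77, and in B cell-like cells 9 of 17 were higher and 1 lower, with Jun at 1.92 and Egr1 at 1.16. In T cell-like cells it was 3 higher and 1 lower of 17. Of all genes measured, 11.4% were past it higher between genotypes in macrophage-like cells, 4.81% in B cell-like cells and 6.53% in T cell-like cells, with 9.93%, 6.73% and 6.73% lower. Among 24 measured cytosolic chaperones and co-chaperones of T cell-like cells 2 were higher, Cacybp (0.86) and Chordc1 (0.76), an HSP90 co-chaperone, and 3 lower, with Bag3, a co-chaperone induced by heat shock, at -0.71, beside the 13.3% of all genes past it either way in these cells. Hsf1 itself had log2 ratios of -0.48 for macrophage-like cells, -0.31 for T cell-like cells and -0.27 for B cell-like cells, none past 1.5-fold.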

How the data were processed

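Single-cell RNA-seq (10x Genomics 3′ v3.1 chemistry, 8000 cells loaded, per the labels' protocols) was deposited as 1 raw UMI count matrix per genotype. The authors made the counts with Cell Ranger 3.0.2, per the submitters' processing notes; their genome build is not given in the sources used here. The 2 samples of a genotype could not be separated, so no test was run. All value columns were mapped (0 left out).

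The genes, lists and tests were chosen with earlier results of these data known. A cell had to hold at least 500 UMIs, 250 genes and at most 10% mitochondrial UMIs. Its lineage needed 3 UMIs from 2 of that lineage's markers, with every other lineage at 1 UMI or at most 20% of them. Mononuclear phagocytes with at least 3 C1q UMIs were macrophage-like, and those with at most 1 monocyte-like. Ccr7 among the mature dendritic cell markers kept out many T and B cells. The Ccr7-holding classes and a gate without Ccr7 were added after seeing the data. UMIs were summed per class and library, with exact Poisson intervals for levels, exact conditional binomial intervals for ratios and Clopper-Pearson intervals for shares, all at 95%. Ratios needed 50 UMIs over both sides; "past" means over 1.5-fold; a sum of 0 was set at 3 UMIs. Shares of cells were also taken after thinning to 1000 UMIs. All 10 members are named, with at most 4 genes of each other list and class (the largest ratios with at least 100 UMIs) and the 8 genes most alike in pattern. A doublet caller marked 0.0403% and 0% of cells, so it had not worked, and removal of the 443 and 496 top-scoring barcodes served as an alternative. Gene positions were checked against GENCODE. The ratio code was tested on simulated data. Python 3.11.15, numpy 2.4.6, scipy 1.17.1 and scanpy 1.11.5 were used.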

Additional observations from a re-analysis of the deposited data

How the results depend on the processing

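Both samples of a genotype share 1 matrix, so leaving out a replicate could not be run. No paired analysis was possible because the samples of a genotype cannot be told apart in its matrix. Of the 122 alternative values for the main comparisons, 88 stayed within the main interval or within 1.5 times the main count. The count of members past 1.5-fold between genotypes in macrophage-like cells, 0, became 1 at a limit of 5% mitochondrial UMIs, 6 with no UMI of another lineage, 1 with other lineages up to 50%, 1 as a mean over cells, 2 after thinning, 3 without the top 1% of cells, 1 by Leiden clusters and 1 without cells of 10 or more Hspa1a and Hspa1b UMIs. The median there became 0.26 with no UMI of another lineage, 0.30 as a mean over cells and 0.40 without the top 1%. The T cell-like count, 2, became 4 with no UMI of another lineage and 4 by clusters. The B cell-like count, 2, became 1 after thinning, 4 with no minimum of UMIs and 1 without the cells high in HSP70. After thinning, B cell-like Hspa1a was under the minimum of 50 UMIs and was not counted. It then had 0 UMIs in PyMT, and in Jagged1/PyMT 7 in cells with a Myc UMI and 28 in those without. Over all classes compared, 24 values of single members fell under that minimum after thinning. The mature dendritic count, 7, became 1 with no UMI of another lineage (2 and 7 cells left, median 2.06), 2 after thinning and 3 without the cells high in HSP70 (median 0.16). Leiden clusters gave no class named mature dendritic. A cluster led by Ccl5 and Fscn1, of 70 and 73 cells, was named mixed. Markers of at least 2 lineages were held by 51.0% of its cells, just past the limit set for that name. The log2 ratio of the 5 inducible members, macrophage-like over T cell-like, was 1.71 in PyMT and became 2.75 with no UMI of another lineage, 1.36 as a mean over cells, 1.43 after thinning, 0.98 without the top 1%, 1.85 by clusters, 1.87 by the gate without Ccr7 and 0.032 without the cells high in HSP70. In Jagged1/PyMT it was 1.37 and became 1.22, 1.18 and 1.15 under the first 3 of these. It became 1.25 under median ratio scaling, 1.15 without the top 1%, and -0.18 without the cells high in HSP70. Those cells were picked by 2 of the 5 members summed, so a fall follows in part from the cut.

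Of single members, 18 values changed sign. With no UMI of another lineage these were macrophage-like Hspa1a (-1.16), neutrophil-like Hspa8 (-0.64) and epithelial-like Hspa1a (-1.50), Hspa1b (-1.42), Hsp90aa1 (-2.13) and Hspa8 (-0.68). Macrophage-like Hspa1b became 0.035 with other lineages up to 50%, 0.17 as a mean over cells, 0.60 without the top 1% and 0.12 without the cells high in HSP70, and Hspa8 became 0.00496 with other lineages up to 50% and 0.00801 without the top 1%. As a mean over cells, monocyte-like Hsp90aa1 became 0.033 and epithelial-like Hspa8 -0.12, the latter -0.075 after thinning. Without the cells high in HSP70, neutrophil-like Hspa8 became -0.085, epithelial-like Hspb1 -0.33 and epithelial-like Hspa8 -0.14. The cause was not tested. Hspb1 in lymphocytes, neutrophils and monocytes and Hspa1b in B cell-like cells stayed under the minimum of 50 UMIs.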

Other observations

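Cycling T cell-like cells, those with at least 2 UMIs of 6 mitosis genes, held more of Hspd1, Hspe1, Hsp90aa1 and Hspa8 per UMI than the other T cell-like cells of their library. Hspd1 stood at 396 against 138 CPM in the 20 cycling cells of PyMT and at 449 against 199 CPM in the 18 of Jagged1/PyMT. Hspe1 stood at 609 against 386 CPM and 762 against 552 CPM, and Hsp90aa1 at 954 against 413 CPM and 924 against 514 CPM. Hspa8, the constitutive HSC70, stood at 2982 against 1747 CPM and 3013 against 1857 CPM. Hspa1a and Hspa1b together showed no such order: 56.5 against 21.7 CPM in PyMT and 31.9 against 51.0 CPM in Jagged1/PyMT. The same 4 genes were also high in T cell-like cells over 8000 UMIs, cycling or not, with Hspd1 at 273 and 308 CPM, Hspe1 at 534 and 649 CPM, Hsp90aa1 at 612 and 592 CPM and Hspa8 at 2209 and 2375 CPM. Cells with more UMIs reach the minimum of 2 mitosis UMIs more easily, and the part of depth was not tested. In Ccr7-holding T cell-like cells of PyMT, Hspd1 stood at 656 against 142 CPM and Hspe1 at 955 against 406 CPM. In those of Jagged1/PyMT the order did not hold for both, with Hspd1 at 224 against 215 CPM and Hspe1 at 481 against 573 CPM. Hsp90aa1 (778 against 484 CPM) and Hspa8 (2411 against 1747 CPM) were higher there. Cycling macrophage-like cells of PyMT had Hspd1 at 133 against 134 CPM. In the 413 cycling macrophage-like cells of Jagged1/PyMT, Hspd1 stood at 225 against 158 CPM, with overlapping intervals after thinning. The HSP70 pair had 417 against 598 CPM there, but 672.3 against 552 CPM once cells were thinned to 1000 UMIs and called cycling on the thinned counts.

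Among T cell-like cells, the HSP70 pair was higher at 1000 to 2000 UMIs than in the deeper ranges, which had no steady order. At 1000 to 2000 UMIs it had 134 CPM for PyMT and 252 CPM for Jagged1/PyMT. At 2000 to 4000 UMIs it had 15.4 and 62.6 CPM. In those of 4000 to 8000 UMIs it had 23.7 and 26.6 CPM, and over 8000 UMIs 21.3 and 41.5 CPM. The pair rested on 6 UMIs and 1 UMI at 500 to 1000. In B cell-like cells of Jagged1/PyMT it stood at 482 CPM at 1000 to 2000 UMIs and 3.75 CPM at 4000 to 8000. In PyMT it had 0 and 1 UMIs in these ranges. Macrophage-like cells had no such order: the pair had 292 and 84.5 CPM at 500 to 1000 UMIs, 108 and 164 CPM at 1000 to 2000, 119 and 333.4 CPM at 2000 to 4000, 1325 and 748 CPM at 4000 to 8000, and 454 and 545 CPM over 8000 UMIs. The part of depth in the class ratios was not tested. Barcodes over 10% mitochondrial UMIs, 194 and 162 of them, held the pair at 553 and 574 CPM, above the 83.8 CPM of all PyMT cells and the 378 CPM of all Jagged1/PyMT cells. They also held Hspb1 at 442 and 150 CPM, against 91.9 and 51.5 CPM over all cells. These values sum over all classes, and the part of the class mix was not tested.

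In macrophage-like cells, 6 of the 11 measured genes of other stress responses were past 1.5-fold lower in Jagged1/PyMT while 2 were higher, and the median log2 ratio was -0.62 beside 0.04 over all genes. Of all genes measured there, 9.93% were past it lower and 11.4% higher. The 4 with the largest ratios were all lower. Srxn1 (-1.35) and Txnrd1 (-0.998) act against oxidants, Sqstm1 (-0.81) is an autophagy receptor and Mdm2 (-1.17) a target of p53. Dnaja4, an HSP40 relative, was the co-chaperone with the largest ratio there, at -1.94 on 35 and 129 UMIs.

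Over the same 24 pools, the genes most alike in pattern to the summed inducible members, of 8673 compared, were Ctnnd1 (Pearson's r 0.95), Klf6 (0.94), Jun (0.93), Ift43 (0.93), Nfix (0.93), Tceal8 (0.92), Anpep (0.92) and Copz2 (0.91). All 8 were highest in an epithelial-like pool. In the 39 and 12 regulatory T cell-like cells Hspb1 stood at 35.4 and 97.2 CPM on 9 and 8 UMIs, above the 3.43 and 4.52 CPM of all T cell-like cells. Only 5 and 2 of these regulatory cells held a Hspb1 UMI, and a single Jagged1/PyMT cell held 7 of the 8.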
